A study of Mus musculus with 8 samples.

Results

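The genes described here are 10 members of the Krüppel-like factor (KLF) family, Klf2, Klf3, Klf4, Klf5, Klf6, Klf9, Klf10, Klf13, Klf15 and Klf16, taken by gene symbol from the 2 deposited expression tables. They are 10 of the 12666 genes listed in both tables (13056 genes in one and 14319 in the other), and each had a mean of at least 1 FPKM in both. RNA-seq was performed on 8 samples of mouse embryonic stem cells (mESCs) in 4 groups of 2 samples, all labelled as cells of a C57BL/6(F) x 129/sv(M) background and grown in serum with leukaemia inhibitory factor (LIF). In the first experiment, KLF3-GFP-negative and KLF3-GFP-positive cells were sorted from a reporter line expanded from picked colonies, which expressed the N-terminal part of KLF3, without its DNA-binding domain, fused to GFP from the CAGGS promoter, with DsRed as a marker of the construct. Each of those samples held 500 cells and was amplified by Smart-seq2, a protocol for full-length cDNA from few cells. In the second experiment, GFP (GFP-overexpression) or a codon-optimized Klf3 (KLF3-overexpression) was induced with doxycycline for 72 h in mESC lines that carried the M2rtTA transactivator at the R26 locus and the transgene at an FRT site in Col1a1, and poly(A) RNA was sequenced. The first comparison asks how cells that kept KLF3-GFP protein differ from cells that did not. The second sets cells with induced KLF3 beside cells with induced GFP, which come from separately picked clones. No uninduced samples were included, so effects of KLF3 and differences between the lines cannot be told apart. Below, "after KLF3 induction" means KLF3-overexpression relative to GFP-overexpression cells.

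KLF proteins bind GC-rich and CACCC-containing DNA through zinc fingers at the C-terminal end, and their divergent N-terminal parts recruit activators or repressors of transcription. Klf2, Klf4 and Klf5 are known for maintaining self-renewal in mESCs, where Klf4 acts downstream of LIF and STAT3 and the 3 factors occupy many of the same sites. Klf3 acts mainly as a repressor through the corepressor CtBP. Klf9, Klf10, Klf13 and Klf16 belong to a branch of the family whose members bind the corepressor Sin3A.

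For each condition the tables give a single value per gene, the authors' mean of 2 samples in FPKM (fragments per kilobase of transcript, scaled to the mapped fragments of the library, so a level per length). The spread between samples is therefore unknown, no test was possible, and every difference below is a description of averaged values. Differences were computed as the second condition minus the first on the log2(FPKM + 1) scale, which understates differences of weakly expressed genes. A gene was counted as higher or lower by more than 2-fold when this difference lay beyond 1 in either direction. The read depth behind the values is unknown. The 2 tables come from different library protocols and were normalized separately, so levels set across them are only values side by side.

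The members shared a layout in the GENCODE annotation. Their coding sequences ran from 244 codons in Klf9 to 483 in Klf4. In each, the last 3 zinc-finger patterns, the only ones used here, spanned 81 codons, or 243 bases, in the C-terminal part. In Klf3 the fingers covered codons 261 to 341 of 344. After the fingers, 1 to 3 codons followed in Klf2, Klf3, Klf4, Klf5 and Klf6, 13 in Klf15, 19 in Klf9, 29 in Klf10, 39 in Klf13 and 43 in Klf16. Of the 243 bases, 76 (31.3%) were the same in all 10 members, and identity between the 45 pairs ranged from 57.2% to 78.2% with a median of 64.6%. The stretches of 5 members are shown because reads from such conserved parts are those that related genes could exchange, and because they include the closest pair (Klf2 and Klf4, 78.2%), Klf3 with a close relative (Klf6, 72.8%) and a distant one (Klf9, 58.8%). Capitals mark bases shared by all 10.
Klf2 fingers: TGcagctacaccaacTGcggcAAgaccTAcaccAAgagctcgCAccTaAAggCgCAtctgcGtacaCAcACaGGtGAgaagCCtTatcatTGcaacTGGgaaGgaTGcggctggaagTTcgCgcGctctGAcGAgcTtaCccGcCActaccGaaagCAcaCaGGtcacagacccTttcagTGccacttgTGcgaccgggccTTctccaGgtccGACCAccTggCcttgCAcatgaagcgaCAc
Klf4 fingers: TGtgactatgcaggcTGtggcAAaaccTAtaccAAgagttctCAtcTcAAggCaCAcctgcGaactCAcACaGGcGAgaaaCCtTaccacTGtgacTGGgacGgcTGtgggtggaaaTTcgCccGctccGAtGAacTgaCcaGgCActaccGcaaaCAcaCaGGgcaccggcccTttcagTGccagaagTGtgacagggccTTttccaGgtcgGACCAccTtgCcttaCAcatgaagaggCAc
Klf3 fingers: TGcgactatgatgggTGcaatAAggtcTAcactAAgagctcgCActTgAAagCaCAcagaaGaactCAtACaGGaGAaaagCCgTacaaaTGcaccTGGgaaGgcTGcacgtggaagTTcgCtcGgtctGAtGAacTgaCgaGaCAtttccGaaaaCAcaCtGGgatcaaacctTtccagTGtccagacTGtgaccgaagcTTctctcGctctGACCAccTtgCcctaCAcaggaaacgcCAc
Klf6 fingers: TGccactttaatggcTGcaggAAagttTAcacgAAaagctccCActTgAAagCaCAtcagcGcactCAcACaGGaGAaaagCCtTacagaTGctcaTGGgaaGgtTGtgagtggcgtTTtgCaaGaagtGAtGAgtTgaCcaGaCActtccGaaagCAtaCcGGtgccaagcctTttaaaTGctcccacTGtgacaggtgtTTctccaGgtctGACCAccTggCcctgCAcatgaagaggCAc
Klf9 fingers: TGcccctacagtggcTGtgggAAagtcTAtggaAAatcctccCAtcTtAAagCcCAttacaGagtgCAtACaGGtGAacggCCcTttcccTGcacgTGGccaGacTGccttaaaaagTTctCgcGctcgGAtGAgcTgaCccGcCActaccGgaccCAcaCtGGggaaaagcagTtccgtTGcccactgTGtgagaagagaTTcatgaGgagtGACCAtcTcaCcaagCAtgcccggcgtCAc
No pair of members shared a run of 50 bases anywhere in the transcripts, and the longest shared run was 36 bases, between Klf3 and Klf13. Codons beginning with CC, which encode proline, made up 22.4% of the codons before the fingers in Klf2, 17.7% (46 of 260) in Klf3 and 17.2% in Klf13, but 8.90% in Klf6 and 7.64% in Klf9.

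Promoters (250 bases before to 50 bases after the RefSeq start) were matched for 7 of the 10 genes on GRCm38.p6. Of these, 4 are shown: Klf3 as the factor under study, Klf6, the member that was higher in both comparisons by the largest difference, and Klf4 and Klf9, which were both lower after KLF3 induction. Capitals mark the CACCC motif of KLF proteins and the GC-box CCGCCC, on either strand (GGGTG and GGGCGG on the other).
Klf3 promoter, chr5:64803271-64803570, plus strand: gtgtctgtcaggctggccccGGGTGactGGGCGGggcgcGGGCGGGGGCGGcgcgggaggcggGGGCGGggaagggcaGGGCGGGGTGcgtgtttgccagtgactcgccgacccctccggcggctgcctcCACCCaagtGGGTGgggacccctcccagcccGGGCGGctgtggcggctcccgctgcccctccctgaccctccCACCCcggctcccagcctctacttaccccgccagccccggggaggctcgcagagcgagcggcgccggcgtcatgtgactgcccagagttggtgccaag
Klf4 promoter, chr4:55532426-55532725, minus strand: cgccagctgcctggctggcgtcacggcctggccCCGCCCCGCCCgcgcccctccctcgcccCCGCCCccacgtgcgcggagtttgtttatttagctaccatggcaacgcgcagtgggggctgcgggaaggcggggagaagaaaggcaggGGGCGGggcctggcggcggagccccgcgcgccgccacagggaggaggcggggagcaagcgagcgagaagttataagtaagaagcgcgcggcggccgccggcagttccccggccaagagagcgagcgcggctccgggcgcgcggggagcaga
Klf6 promoter, chr13:5861239-5861538, plus strand: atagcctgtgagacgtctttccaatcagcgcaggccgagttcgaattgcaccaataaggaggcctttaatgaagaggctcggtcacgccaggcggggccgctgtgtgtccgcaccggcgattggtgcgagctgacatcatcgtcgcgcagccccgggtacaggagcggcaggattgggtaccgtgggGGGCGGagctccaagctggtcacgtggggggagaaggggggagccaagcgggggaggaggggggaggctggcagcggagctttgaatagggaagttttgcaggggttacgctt
Klf9 promoter, chr19:23140976-23141275, plus strand: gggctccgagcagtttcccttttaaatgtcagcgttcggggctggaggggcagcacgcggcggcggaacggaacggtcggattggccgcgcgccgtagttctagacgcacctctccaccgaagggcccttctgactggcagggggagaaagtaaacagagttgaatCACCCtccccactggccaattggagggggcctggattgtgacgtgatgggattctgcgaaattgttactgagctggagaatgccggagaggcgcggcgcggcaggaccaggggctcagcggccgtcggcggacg
The Klf3 promoter held 5 CACCC and 6 CCGCCC matches at 76.7% GC, with 1 base common to both motifs. Klf4 had 0 and 4 matches, Klf6 0 and 1, Klf9 1 and 0, and in the promoters not shown Klf2 had 1 and 2, Klf13 1 and 3, and Klf15 1 and 1. Among 32851 promoters of the same length, 57.5% held a CACCC and 35.7% a CCGCCC, against 5 of 7 and 6 of 7 for the members. The promoters of the members had 63% (Klf6) to 76.7% (Klf3) GC, and these shares were not matched for GC content. Such matches describe the letters of these windows and do not show binding.

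Klf3, the gene under study, was the most highly expressed member in sorted cells. Cells without KLF3-GFP had 107 FPKM and cells with it 122 FPKM, above 92.7% and 92.9% of the listed genes. The difference was 0.19 on the log2(FPKM + 1) scale. In the overexpression experiment Klf3 was listed at 58.7 FPKM with GFP and 47.8 FPKM with KLF3, a difference of −0.29. Neither pair of levels differed by more than 2-fold. These rows cannot check the labels: the reporter contains the N-terminal part of Klf3, whose reads may count toward Klf3 in both sorted groups, and the induced Klf3 is codon-optimized, so its reads need not align to the Klf3 locus. In GENCODE, Klf3 (ENSMUSG00000029178, chr5:64803388-64832901, plus strand, 6 exons) also overlaps Gm20033 on the opposite strand and C230096K16Rik on its own strand, and reads of these genes may not be told apart.

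**Figure D1:**
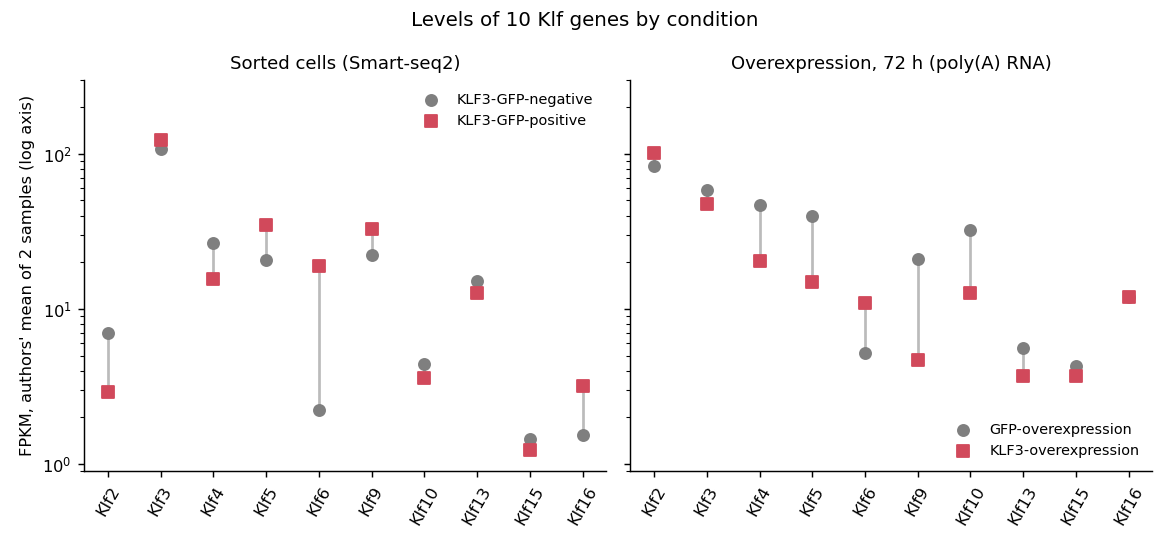
Levels of the 10 Klf genes in sorted cells (left) and in the overexpression experiment (right), in FPKM on a log axis. Each point is the authors' mean of 2 samples, circles for KLF3-GFP-negative or GFP-overexpression and squares for KLF3-GFP-positive or KLF3-overexpression cells, and grey lines join the values of a gene. The longest line on the left is Klf6 (2.24 and 19.0 FPKM) and on the right Klf9 (20.9 and 4.69 FPKM), and the points of Klf16 on the right coincide (11.85 and 11.96 FPKM).

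The make-up of the family differed between the experiments. Klf3 contributed 51.4% and 49.2% of the summed FPKM of the 10 genes in KLF3-GFP-negative and KLF3-GFP-positive cells, and 18.9% and 20.6% in GFP- and KLF3-overexpressing cells. Klf2, a pluripotency-associated member, ranked sixth and ninth in the sorted groups at 7.02 and 2.90 FPKM but highest in both induced groups at 83.9 and 102 FPKM. Klf2, Klf4 and Klf5 together made up 26.0% and 21.5% of the family sum in sorted cells against 55.1% and 58.9% in the overexpression experiment. Klf3 is part of that sum. Without Klf3 the family summed to 101 and 126 FPKM in negative and positive cells, of which these 3 genes gave 54.2 and 53.4 FPKM. With GFP and with KLF3 induced, the sums without Klf3 were 251 and 185 FPKM, of which the 3 genes gave 171 and 137 FPKM. Klf15, known from muscle and liver metabolism, was lowest in KLF3-GFP-negative, KLF3-GFP-positive and GFP-overexpressing cells at 1.46, 1.24 and 4.30 FPKM, and Klf13 was lowest after KLF3 induction at 3.69 FPKM. Differences in cells, culture and library protocol, and reads from the reporter that carries part of Klf3, cannot be told apart here.

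**Figure D2:**
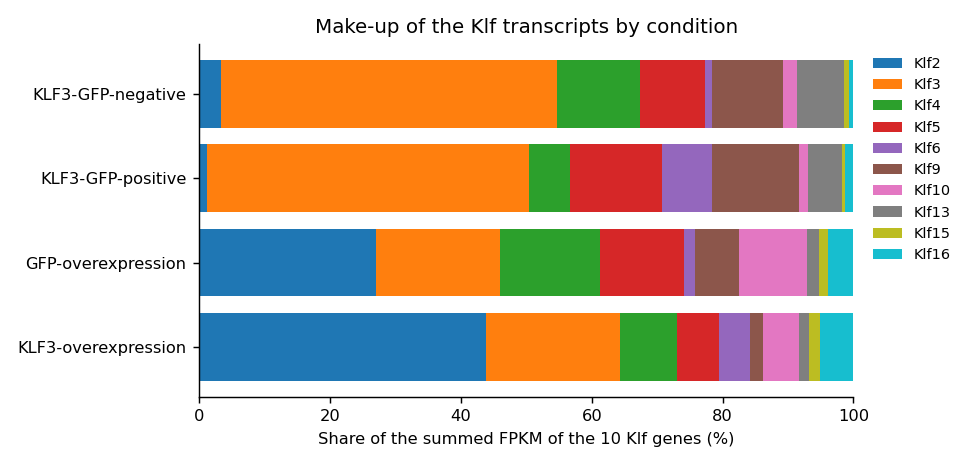
Share of each Klf gene in the summed FPKM of the 10 genes, in percent, for the 4 conditions (1 bar each, from the authors' means of 2 samples). Klf3 fills 51.4% and 49.2% of the bars of sorted cells, and Klf2 fills 27.1% and 43.8% of those of the overexpression experiment. The Klf3 share of sorted cells may include reads from the reporter, which carries part of Klf3.

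In sorted cells, 1 member was higher by more than 2-fold in KLF3-GFP-positive cells (Klf6), 1 was lower (Klf2), and the other 8 lay within 2-fold. Among all 9212 genes whose mean reached 1 FPKM, 13.8% were higher and 8.32% lower by this limit, 22.1% in all, so that 2 of 10 members is near the share of all genes. The median difference of the members was 0.03, equal to that of all genes at this precision, and 5 of the 10 lay above 0, against 51.7% of all genes.

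Klf6 is a broadly expressed activator that is induced early after injury or growth factor treatment. Its level was 2.24 FPKM without and 19.0 FPKM with KLF3-GFP, 8.49-fold apart, with a difference of 2.63 on the log2(FPKM + 1) scale. Of all genes compared, 98.1% had a lower difference. It moved from the eighth to the fourth place among the members and from 1.07% to 7.65% of the family sum. Klf6 (ENSMUSG00000000078, chr13:5861489-5870393, plus strand, 4 exons) overlaps no other annotated gene.

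The 3 self-renewal factors did not share a direction. Klf2 (ENSMUSG00000055148, chr8:72319033-72321656, plus strand, 3 exons) was 2.42-fold lower in KLF3-GFP-positive cells, from 7.02 to 2.90 FPKM, a difference of −1.04 that lies close to the limit and within it when a trend with gene span, transcript length or GC content is removed (−0.97, −0.93 and −0.88). Klf4, an original reprogramming factor, was listed at 26.5 and 15.6 FPKM, a difference of −0.72. Klf5, which also marks trophectoderm and inner cell mass in the embryo, was listed at 20.7 and 34.9 FPKM, a difference of 0.72. The summed level of the 3 genes was nearly equal, at 54.2 and 53.4 FPKM, while Klf4 stood above Klf5 in KLF3-GFP-negative cells and below it in KLF3-GFP-positive cells.

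The Sin3A-binding members and Klf15 stayed within 2-fold. Klf9, a gene induced by thyroid hormone and glucocorticoids, was listed at 22.4 and 32.9 FPKM (difference 0.54). Klf16 was listed at 1.54 and 3.19 FPKM, 2.07-fold apart in plain FPKM but with a difference of 0.72 on the log2(FPKM + 1) scale. Klf10, a gene induced early by TGF-β, was listed at 4.43 and 3.59 FPKM, a difference of −0.24. Klf13 was listed at 15.1 and 12.7 FPKM, a difference of −0.23. For Klf15 the difference was −0.14.

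Markers of other cell types differed between the sorted groups. All 15 primitive endoderm markers on the list were higher by more than 2-fold in KLF3-GFP-positive cells. Their summed level was 47.9 FPKM in the negative and 3663 FPKM in the positive group. Most of it came from Sparc (33.5 and 981 FPKM) and, in the positive group, also from Srgn (2.29 and 1860 FPKM). Foxa2 and Cubn stood at the lowest listed value, 0.1 FPKM, in KLF3-GFP-negative cells. All 10 embryonic stem cell markers had lower levels in KLF3-GFP-positive cells, 8 of them by more than 2-fold. Their summed levels were 22031 and 11504 FPKM, nearly all from Dppa5a (20569 and 10977 FPKM), which lay within 2-fold (−0.91). The trophoblast list summed to 37.0 and 398 FPKM, most of it from the keratin genes Krt8 (18.3 and 206 FPKM) and Krt18 (12.7 and 183 FPKM). Of 5 genes compared, these and Tead4 were higher by more than 2-fold, whereas Tfap2c had a lower level (2.40 and 0.770 FPKM, difference −0.94). Other trophoblast markers had a mean under 1 FPKM: Cdx2 (0.10 and 0.57), Hand1 (0.10 and 0.29), Gata3 (0.36 and 0.12) and Krt7 (0.30 and 0.17). The sum of this list is thus mainly that of the 2 keratin genes. Of 7 macrophage markers 3 were listed, with a sum of 5.58 and 16.8 FPKM, most of it from Cd68 (4.50 and 15.0 FPKM). Csf1r stood at 0.15 and 0.16 FPKM, and Fcer1g at 0.93 and 1.63 FPKM. None of the 4 listed fibroblast and feeder markers reached a mean of 1 FPKM. The part of these other cell states in the Klf6, Klf2, Klf4 and Klf5 differences was not tested, and a different share of a cell type cannot be told apart from a different level per cell in such bulk samples.

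After KLF3 induction, 4 members were lower by more than 2-fold than with GFP (Klf9, Klf5, Klf10 and Klf4), 0 were higher, and 6 lay within 2-fold. Among all 11179 genes compared, 10.1% were lower and 6.6% higher by this limit, 16.7% in all. Of the genes past 2-fold, 39.4% were higher, a share that was 61.5% under median-ratio scaling and 52.9% under quantile normalization. The median difference of the members was −0.40. All genes had a median of −0.18, so the members are also given relative to that value below. Of the members 3 lay above 0 (Klf6, Klf2 and Klf16), against 40.5% of all genes. The summed FPKM of the family was 309.8 with GFP and 232 with KLF3, a ratio of 0.750. The sum over all listed genes had a ratio of 1.36, although the median gene was lower. Ribosomal protein genes made up 28.9% of that sum with GFP and 38.9% with KLF3, so it does not describe most genes.

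Klf9 had the lowest difference of the 10. It was listed at 20.9 FPKM with GFP and 4.69 FPKM with KLF3, 4.46-fold apart, with a difference of −1.95 on the log2(FPKM + 1) scale and −1.77 relative to the median gene. Only 0.617% of the genes compared had a lower difference. In sorted cells its difference had been 0.54. Klf9 (ENSMUSG00000033863, chr19:23141226-23166911, plus strand, 2 exons) contains the microRNA gene Mir1192 on the same strand.

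Klf5 and Klf4 were both lower with KLF3, unlike in sorted cells, where they had opposite signs. Klf5 (ENSMUSG00000005148, chr14:99298691-99313405, plus strand) was listed at 39.9 and 14.9 FPKM, 2.68-fold apart, a difference of −1.37 and of −1.19 relative to the median gene. Klf4 (ENSMUSG00000003032, chr4:55527143-55532466, minus strand) was listed at 47.0 and 20.2 FPKM, 2.32-fold apart, a difference of −1.18 and of −0.998 relative to the median gene. Klf2 was listed at 83.9 and 102 FPKM, a difference of 0.28, and took 43.8% of the family sum after KLF3 induction against 27.1% with GFP. The summed level of the 3 self-renewal factors was 171 FPKM with GFP and 137 FPKM with KLF3, a ratio of 0.802.

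Klf10 (ENSMUSG00000037465, chr15:38294413-38300707, minus strand) was listed at 32.4 FPKM with GFP and 12.6 FPKM with KLF3, 2.57-fold apart, a difference of −1.29 and of −1.11 relative to the median gene. Klf13 and Klf16 were closer to the median gene. Klf13 (ENSMUSG00000052040, chr7:63886347-63938915, minus strand) was listed at 5.63 and 3.69 FPKM, a difference of −0.50, and overlaps Gm27252 and the protein-coding E030018B13Rik on the opposite strand. Klf16 (ENSMUSG00000035397, chr10:80567124-80577321, minus strand) was listed at 11.85 and 11.96 FPKM, a difference of 0.01, and Klf15 (ENSMUSG00000030087, chr6:90462576-90475238, plus strand) at 4.30 and 3.72 FPKM, a difference of −0.17. The 4 members of this branch thus ranged from −1.95 to 0.01.

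Klf6 was listed at 5.21 FPKM with GFP and 10.97 FPKM with KLF3. The plain ratio was 2.11, and the difference of 0.95 on the log2(FPKM + 1) scale lies just within 2-fold, or at 1.13 relative to the median gene. Of the genes compared, 92.4% had a lower difference. It was the member with the highest difference in both experiments.

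**Figure D3:**
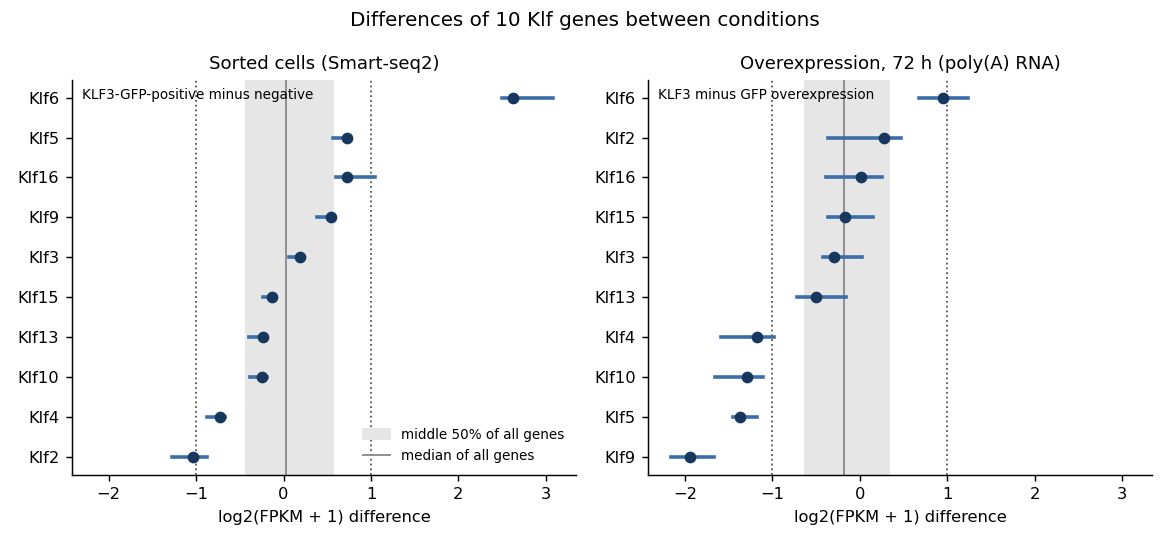
Difference of each Klf gene on the log2(FPKM + 1) scale, KLF3-GFP-positive minus KLF3-GFP-negative cells (left) and KLF3- minus GFP-overexpression (right), with genes ordered by difference. Points are the values reported, bars run from the lowest to the highest value over all processing settings and are not errors, the grey band spans the middle of all genes between the quartiles (−0.43 to 0.56 and −0.63 to 0.33), and dotted lines mark 2-fold. Klf6 lies at the top on both sides (2.63 and 0.95), Klf2 is lowest on the left (−1.04) and Klf9 on the right (−1.95).

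Other values moved with the overexpression comparison too. The 15 primitive endoderm markers were all higher by more than 2-fold with KLF3, and none stood at the lowest listed value in either group. Their summed levels were 195 and 895 FPKM, most of it from Sparc (138 and 484 FPKM). Of the 10 embryonic stem cell markers, 0 were higher and 2 lower by more than 2-fold (Nanog and Esrrb), with a median difference of −0.67 and 7 of 10 below 0. The counts were 1 and 1 with median-ratio scaling. Their sum was 6570 FPKM with GFP and 8677 FPKM with KLF3, led by Dppa5a (3794 and 6334 FPKM). Of 7 trophoblast markers compared, Krt18 (36.6 and 339.6 FPKM), Krt8 (26.3 and 176 FPKM) and Hand1 were higher by more than 2-fold, while Tfap2c (26.2 and 13.1 FPKM) and Tead4 (10.7 and 6.80 FPKM) had lower levels, and the list summed to 108 and 553 FPKM. Fibroblast and feeder markers summed to 7.59 and 9.93 FPKM. Macrophage markers (2 listed) summed to 13.0 and 9.47 FPKM, most of it from Cd68 (12.7 and 8.64 FPKM). The Y-linked genes Uty, Ddx3y and Eif2s3y stood at 3.56, 3.34 and 30.9 FPKM with GFP and at 0.1, 0.1 and 1.67 FPKM with KLF3. In sorted cells they stood at 21.4, 5.96 and 15.6 FPKM in KLF3-GFP-negative and at 20.0, 9.83 and 16.6 FPKM in KLF3-GFP-positive cells. Of the 5 genes listed on chromosome Y in the overexpression experiment, Uba1y was also lower with KLF3 (0.41 and 0.1 FPKM). Erdr1 went the other way (78.6 and 246 FPKM). Each induced line was expanded from picked clones, so line and transgene cannot be told apart. Ribosomal protein genes made up 28.9% of the FPKM sum with GFP and 38.9% with KLF3.

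Differences in the overexpression experiment also varied with gene structure, for a reason that was not tested. When genes were ranked by transcript length into 5 groups of like size, the median difference went from 0.45 for the shortest to −0.54 for the longest. Klf9 and Klf6 were in the same group, with a median of −0.44, and differed by −1.95 and 0.95. Klf4, Klf5 and Klf10 were in the middle group with Klf16, with a median of −0.25. Klf3 and Klf13 were in the longest group. In sorted cells the same medians ran only from −0.11 to 0.17. With the trend with transcript length removed, Klf9, Klf5, Klf10 and Klf4 were again lower by more than 2-fold, Klf6 reached 1.20, and Klf3 moved from −0.29 to 0.03. Removing the trend with gene span or GC content put Klf2 at −0.36 or −0.18 and Klf16 at −0.20 or −0.39, so that the sign of Klf2, Klf3 and Klf16 after KLF3 induction depends on this choice.

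The genes related to the family and its signals were described from lists. Counts in all lists are to be read beside the shares over all genes past 2-fold. These were 13.8% higher and 8.32% lower in sorted cells, and 6.6% higher and 10.1% lower after KLF3 induction. Of the 16 remaining KLF and Sp genes listed for comparison, 10 were present in the table of sorted cells and 4 reached a mean of 1 FPKM, with 0 beyond 2-fold and a median difference of 0.05. In the overexpression experiment, 13 were present and 6 compared, of which 3 were lower by more than 2-fold and 0 higher, with a median of −0.95. The count was 1 with median-ratio scaling, with quantile normalization or without the length or GC trend. The 3 were Sp3 (23.8 and 7.35 FPKM, difference −1.57), Sp1 (22.4 and 9.82 FPKM, −1.11) and Klf8 (3.26 and 1.04 FPKM, −1.06). Sp1 and Sp3 are broadly expressed factors that bind the same GC boxes, and Klf8 is a known target repressed by KLF3 in blood cells. In sorted cells Klf8 stood at 0.23 and 1.12 FPKM, under the minimum.

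Of the genes known as KLF3 targets in other tissues, 4 were listed in each table. Fam132a, encoding an adipokine that KLF3 represses in fat, was listed at 15.1 and 3.71 FPKM in sorted cells (difference −1.77) and at 7.08 and 9.82 FPKM with GFP and KLF3 (0.42). Lgals3, encoding galectin-3, was listed at 19.6 and 34.4 FPKM in sorted cells and at 4.60 and 9.68 FPKM in the overexpression experiment, differences of 0.79 and 0.93. Cebpa stood at 0.19 and 0.1 FPKM in sorted cells, under the minimum, and at 1.05 and 1.06 FPKM in the overexpression experiment. The reporter of the sorted cells lacks the DNA-binding domain, and the part of KLF3 in these differences was not tested. Of the 4 genes compared after induction, Klf8 was lower by more than 2-fold, but the count was 0 with median-ratio scaling, quantile normalization or any of the 3 trends removed. With a minimum mean of 5 FPKM, Klf8 was no longer compared.

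LIF-STAT3 signalling genes and naive pluripotency factors, which act upstream of or beside Klf2, Klf4 and Klf5, had a median difference of −0.44 in sorted cells and −0.76 after KLF3 induction. In sorted cells 2 of 18 were higher by more than 2-fold, the LIF receptor gene Lifr (3.32 and 8.25 FPKM, 1.10) and Tbx3 (10.1 and 21.4 FPKM, 1.02), and 6 were lower, led by Sox2 (39.4 and 9.64 FPKM, −1.92), Gbx2 (11.2 and 2.37 FPKM, −1.86) and Nanog (20.8 and 5.03 FPKM, −1.85). The count higher in sorted cells was 0 with quantile normalization or without the length trend. Among all genes 13.8% were higher and 8.32% lower there, so that 2 of 18 higher is near the share of all genes. After KLF3 induction 2 of 20 were higher and 7 lower, or 4 lower with median-ratio scaling, against 6.6% higher and 10.1% lower among all genes. Gbx2 was higher there (9.17 and 26.7 FPKM, 1.45), the opposite of sorted cells. Sall4 was also higher (43.3 and 90.6 FPKM, 1.05), and stood at 72.4 and 89.6 FPKM in sorted cells. Prdm14 (11.9 and 3.20 FPKM, −1.61), Nanog (255 and 103 FPKM, −1.30) and Nr5a2 (12.7 and 4.58 FPKM, −1.30) were lowest.

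Immediate early genes, the class of rapid responders that Klf6 and Klf10 are counted among in many cells, had a median of 0.87 in sorted cells, with 7 of 14 higher and 3 lower by more than 2-fold. Cyr61, a target of YAP, was listed at 1.17 and 50.5 FPKM, a difference of 4.57. Btg2 was also higher (5.69 and 23.8 FPKM, 1.89), and Myc was lower (8.47 and 1.62 FPKM, −1.85), as were Dusp1 and Ier2. After KLF3 induction 5 of 17 were higher and 0 lower (1 or 2 lower with a pseudocount of 0.1, a floor or a trend removed), with a median of 0.63, led by Cyr61 (8.36 and 51.2 FPKM, 2.48), Ctgf (7.22 and 39.1 FPKM, 2.29) and Fosl1 (0.14 and 2.82 FPKM, 1.74). Klf6 and Klf10 therefore stood on opposite sides of 0 in both experiments (2.63 and −0.24, then 0.95 and −1.29), while the median of this list was above 0 in both.

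Glucocorticoid-induced genes were listed because Klf9 and Klf15 respond to glucocorticoids in other tissues. In sorted cells 1 of 6 was higher by more than 2-fold, the metallothionein gene Mt1 (483 and 1175 FPKM, 1.28). Another was lower, the cell cycle inhibitor gene Cdkn1c (22.9 and 5.30 FPKM, −1.93), and the median was −0.14. With 13.8% of all genes higher and 8.32% lower, these counts do not set the list apart from all genes. After KLF3 induction Mt1, Mt2 and Cdkn1c were higher (1.81, 1.81 and 1.65) and Sgk1 was lower (−1.09), of 8 genes compared, with 0 lower under median-ratio scaling or without the span trend. Klf9 had a lower difference there than any of these 8. Of the ubiquitin ligases known to act on KLF proteins, 6 were compared in each experiment, with medians of 0.26 and −0.23. In sorted cells Vhl passed 2-fold on the log2(FPKM + 1) scale (2.61 and 7.66 FPKM, 1.26), while Wwp1 (2.09 and 4.59 FPKM) and Btrc (3.73 and 1.66 FPKM) were 2.196-fold and 2.247-fold apart in plain FPKM and passed it, upward and downward, with a pseudocount of 0.1 or a floor. After KLF3 induction 0 of the 6 passed it.

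**Figure D4:**
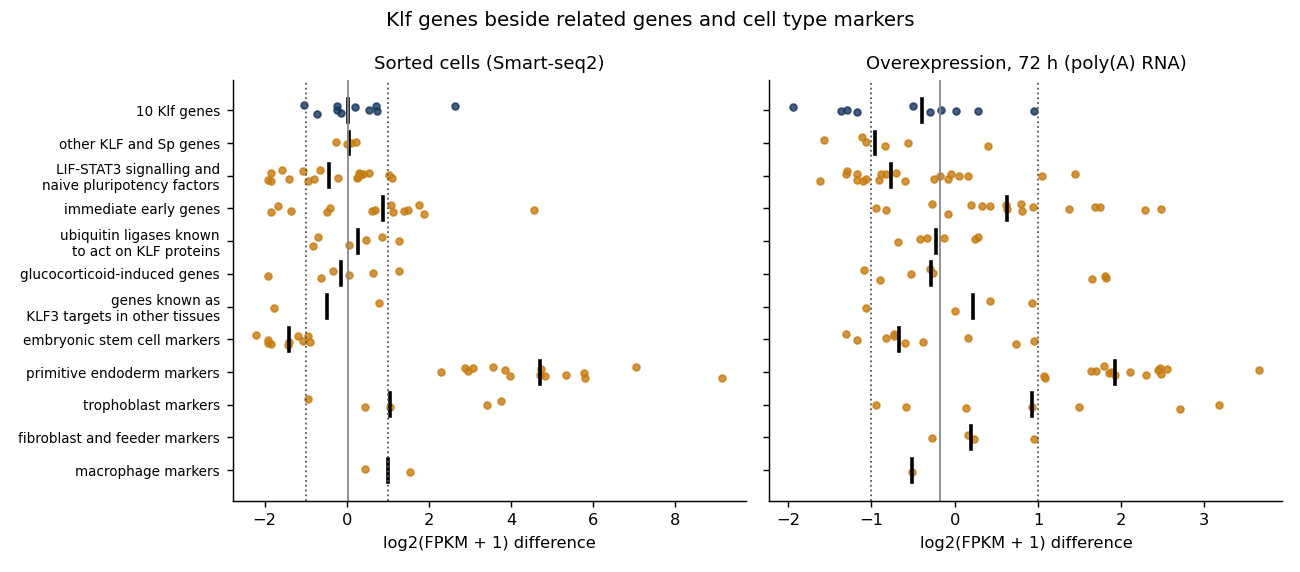
Differences on the log2(FPKM + 1) scale of the 10 Klf genes and of the genes of 11 lists whose mean reached 1 FPKM, in sorted cells (left) and in the overexpression experiment (right). Each point is a gene, short black lines mark list medians, the grey line marks the median of all genes and dotted lines mark 2-fold. The 10 Klf genes are centred at 0.03 and −0.40, whereas the primitive endoderm markers lie at medians of 4.71 and 1.93.

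Genes whose pair of differences lay nearest to that of a member were found among the 8886 other genes compared in both experiments, by Euclidean distance over the 2 differences. For Klf6 they were Sec63, which encodes an endoplasmic reticulum translocation factor (distance 0.0463), Glipr2 (0.103) and the tetraspanin gene Tspan6 (0.141). For Klf2 they were Ddx39b (0.0152), an RNA helicase gene, Zglp1 (0.0258) and Angptl6 (0.0292). For Klf3, whose differences are near 0 where genes lie dense, they were Sycp3 (0.00589), Zkscan6 (0.00657) and Zbtb21 (0.00999). Sec63 was listed at 2.84 and 23.1 FPKM in sorted cells and at 17.8 and 36.2 FPKM in the overexpression experiment, differences of 2.65 and 0.99 beside 2.63 and 0.95 for Klf6. A likeness over 2 differences of averaged values describes these columns only.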

How the data were processed

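Per the labels and the study's methods, RNA of sorted cells (500 cells per sample, Smart-seq2) and poly(A) RNA of induced cells (72 h, NEBNext Ultra Directional kit) was sequenced on Illumina HiSeq. The authors aligned reads to mm10 with STAR (version 2.6.0 in the submitters' processing notes, where the methods name another version) under the GENCODE annotation, and Cufflinks (version 2.2.1) gave FPKM. The strand setting is not given in the sources used here. The deposited FPKM values are means of 2 replicates per condition, rounded to 2 decimals, with a lowest value of 0.1. Depth per sample is unknown and no values of single replicates were used here, so the planned tests (limma, leaving out replicates, a replicate block) could not be run and no error is given.

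Differences of log2(FPKM + 1) were computed within each table (Python 3.11.15, numpy 2.4.6, pandas 2.3.3) for genes whose mean reached 1 FPKM, with a pseudocount of 1 and a limit of 2-fold. Samples were grouped by their labels, and no value was compared by a test. Alternatives were a pseudocount of 0.1, a floor of 0.1, other minimum means, median-ratio scaling, quantile normalization and, chosen after seeing the data, removal of lowess trends (fraction 0.3, statsmodels 0.14.6) with gene span, transcript length or GC content. Coordinates are those of the tables (mm10). Exons, overlaps and coding sequences came from GENCODE M21, promoters from RefSeq. Exons and coding sequences are those of the transcript with the longest coding sequence, and transcript length and GC content those of the longest protein-coding transcript. Zinc fingers were found by the cysteine and histidine spacing of the classical finger, and the last 3 matches were kept. The members and the 11 gene lists were chosen with earlier results of these data known. Named genes were every member, up to 3 genes past 2-fold with the largest absolute difference per list and experiment, and the 3 nearest genes to Klf3, Klf6 and Klf2; Esrrb, the Y-linked genes and other genes named singly were added after their values were seen. The scripts were tested on simulated data.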

Additional observations from a re-analysis of the deposited data

How the results depend on the processing

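No paired analysis was possible because the tables hold 1 average per condition; for the same reason replicates could not be left out in turn. The number of members past 2-fold in sorted cells was 2, and 1 with a minimum mean of 5 FPKM (Klf2, Klf10, Klf15 and Klf16 then fall under the minimum) and 1 after removal of the trend with gene span, transcript length or GC content (Klf2 at −0.97, −0.93 and −0.88). The members' median in sorted cells was 0.0277, and −0.0137 with a pseudocount of 0.1, −0.0217 with a floor of 0.1, −0.0853 with quantile normalization and −0.0221 without the length trend. After KLF3 induction the count of 4 and the median of −0.40 kept their side under every alternative run, but median-ratio scaling put Klf4 at −0.98 and Klf6 at 1.12, and Klf6 also passed 2-fold with a pseudocount of 0.1 (1.06), a floor (1.07), quantile normalization (1.21) and without the length or GC trend (1.20 and 1.24). Klf16 passed it in sorted cells with a pseudocount of 0.1 (1.004) or a floor (1.05). The sign of Klf15 after induction turned with quantile normalization (0.15). Median-ratio scaling moved the median of all genes after induction from −0.18 to −0.01. Over all genes, 738 were higher and 1133 lower after induction; 1140 and 713 with median-ratio scaling, 800 and 711 with quantile normalization, and 1819 or 1912 lower with a pseudocount of 0.1 or a floor, while 480 or 465 were higher without the span or length trend. In sorted cells 1267 and 766 became 840 and 417 with a minimum mean of 5 FPKM. The cause of these shifts was not tested.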
